A study of Homo sapiens with 12 samples.

Results

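Keratins form the intermediate filaments of epithelial cells. The transcripts of 10 keratin genes were followed here through cystine withdrawal: KRT7, KRT8, KRT18, KRT19, KRT20, KRT23, KRT80, KRT81, KRT16 and KRT17. They were taken by gene symbol as 10 of the 60671 named rows of the deposited count table, and 9 of them had enough counts to be tested, KRT17 being the exception. The cells were HCT116, an established human colorectal carcinoma line that the labels give as wild type. Controls stayed in full DMEM with fetal bovine serum and antibiotics for 24 h or 48 h. Deprived cells were washed and given the same medium with 0 mM cystine, the oxidised dimer of cysteine, for 24 h or 48 h. Each of these 4 groups had 3 samples, and the series asks how transcripts respond to the loss of cystine. A wash and fresh medium are described for the deprived cells only, so that step and the lack of cystine cannot be told apart. All samples share 1 cell line and genotype. Nothing in the labels describes the 3 samples of a group as separate cultures, so p-values here measure sample-to-sample spread that could be technical.

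Keratins are built as pairs of a type I (acidic) and a type II (basic to neutral) chain, and neither type forms a filament without the other. KRT8 (type II) and KRT18 (type I) are the first pair of simple, single-layered epithelia, and KRT19, KRT20 and KRT7 are added to it in particular ducts and glands. In the colon KRT20 is a marker of differentiated surface cells, whereas KRT7 is usually scarce and its presence or absence is read beside KRT20 in pathology. KRT23 is another type I chain of glandular epithelia and KRT80 a type II chain found widely in epithelia. KRT16 and KRT17 are type I keratins that stratified epithelium makes after wounding or stress, and KRT81 is a type II keratin of hair and nail.

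The total estimated count per sample was 19146108 to 24179533. EPCAM and CDH1, an adhesion molecule and the cadherin of epithelia, lay at 251 to 323 and 126 to 213 CPM (each count divided by the TMM-scaled library size, a relative abundance) in every sample. CDX2, an intestinal transcription factor, lay at 13 to 21.4 CPM, while CDX1 had 0 counts throughout and CEACAM5 and GPA33 reached at most 0.298 and 0.513 CPM, so the colon label rested on general epithelial markers and CDX2. Among 5 leukocyte markers PTPRC and CD3E were at 0 counts in all samples, and the list summed to 0.22 to 0.78 CPM over the 4 groups. The 6 fibroblast markers summed to 32.3 to 49.4 CPM in control and 16.3 to 22.6 CPM in deprived samples, almost all of it COL1A1, with DCN at 0.0473 CPM or less. Of 8 squamous markers IVL was at 0 counts in all samples and TP63, KRT5, KRT14, KRT1, DSG3 and KRT6A stayed under 0.4 CPM, so that KRT10 held most of the list's sum.

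Keratins are close relatives, and the estimated counts divide reads among matching transcripts, so 4 stretches of coding sequence are shown to say where a read could not tell members apart. They come from GENCODE release 29 transcripts (GRCh38) and are the longest runs that each pair of genes shares without a mismatch. For KRT81 and the hair keratin KRT86 the run was 605 bases long, from base 61 to base 665 of the 1515 coding bases of KRT81, and its first 160 bases are given. KRT16 and KRT14 shared 158 bases, KRT17 and KRT16 61 bases, and KRT18 and KRT19 17 bases. The run of 17 bases is shorter than the 50-base words used below. Capitals in KRT16 and KRT18 mark the 14 bases common to those runs, which lie where the keratin rod begins.
KRT81 with KRT86: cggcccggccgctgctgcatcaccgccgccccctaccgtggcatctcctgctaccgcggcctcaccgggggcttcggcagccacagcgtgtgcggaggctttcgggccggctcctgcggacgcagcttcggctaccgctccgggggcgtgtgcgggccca
KRT16 with KRT14: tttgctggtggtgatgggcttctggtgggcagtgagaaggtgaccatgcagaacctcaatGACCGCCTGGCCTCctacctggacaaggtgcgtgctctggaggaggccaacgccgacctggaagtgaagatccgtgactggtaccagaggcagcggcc
KRT18 with KRT19: aacGACCGCCTGGCCTC
KRT17 with KRT16: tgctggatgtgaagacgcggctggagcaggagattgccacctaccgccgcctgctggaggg

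Over all annotated transcripts of each gene, KRT81 was the least distinct, with 43.7% of its distinct 50-base words and 29.7% of its 100-base words found in transcripts of another gene, mostly of KRT86. KRT16 shared 16.5% of its 50-base words, KRT18 14.3%, KRT8 10.1% and KRT17 9.02%. Those shares fell to 4.69%, 0%, 1.6% and 0.147% at 100 bases. For KRT8 and KRT18 the gene sharing most 50-base words was a pseudogene, KRT8P3 (5.49%) and KRT18P11 (4.5%). KRT19, KRT7 and KRT80 shared under 1% at 50 bases, and KRT20 and KRT23 shared none. By shared sequence alone, reads of KRT81 and KRT16 are therefore the hardest of the 10 to assign. The read length is not known from the sources used.

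In control cells the simple-epithelial keratins KRT8, KRT19 and KRT18 stood far above the rest. On a per-length scale (CPM per kilobase of the gene length in the deposited table), which allows genes to be compared, KRT8 held 1110, KRT19 714 and KRT18 434 in control cells at 24 h, above 99.6%, 99.4% and 99.1% of the tested genes. The order KRT8, KRT19, KRT18 was the same in all 4 group means. KRT23 came next at 13.8 CPM per kilobase, followed by KRT7 at 4.58, KRT80 at 1.44 and KRT20 at 1.22. KRT16, KRT81 and KRT17 were at 0.182, 0.0852 and 0.0762 CPM per kilobase, and the last 2 did not differ beyond their spread.

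After 24 h without cystine, 7 of the 9 tested keratins rose and 1 fell. KRT7, KRT80, KRT81 and KRT16 rose 8.6- to 12.5-fold, the 3 abundant keratins rose 1.25- to 1.52-fold, KRT20 fell and KRT23 did not pass the test. The 8 keratins that passed stand against a background of 55.6% of the 16994 tested genes called at this time (28.8% higher and 26.9% lower, adjusted p under 0.05 by edgeR's quasi-likelihood test with Benjamini-Hochberg adjustment). A rise of at least 4-fold was rarer, at 1.15% of tested genes, and it was seen in KRT7, KRT80, KRT81 and KRT16. The median log2 fold change was 0.60 over the 9 keratins and -0.01 over all tested genes. KRT16 and KRT81 passed the filter on low counts only through the deprived groups, in which they are high, so their presence among the tested genes favours a rise. Of the 7 keratins with at least 10 counts in each sample compared, 6 were called and 2, KRT7 and KRT80, were at least 4-fold higher.

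After 48 h all 9 tested keratins had changed, 7 of them higher and 2 lower, where 68.3% of tested genes were called (33.4% higher and 34.9% lower). The same 4 genes, KRT7, KRT80, KRT81 and KRT16, were at least 4-fold higher, which held for 1.99% of tested genes. KRT20 and KRT23 had fallen by at least 2-fold, as had 15.3% of tested genes. The median log2 fold change was 0.56 over the 9 keratins and -0.02 over all tested genes. The 9 include KRT16 and KRT81, whose presence among the tested genes favours a rise, as given for 24 h, and so favours a higher median. All 6 keratins with at least 10 counts in every sample compared were called, and KRT7 and KRT80 were the 2 of them at least 4-fold higher. In such bulk samples, fewer cells that express a gene and less RNA per cell cannot be told apart.

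**Figure D1:**
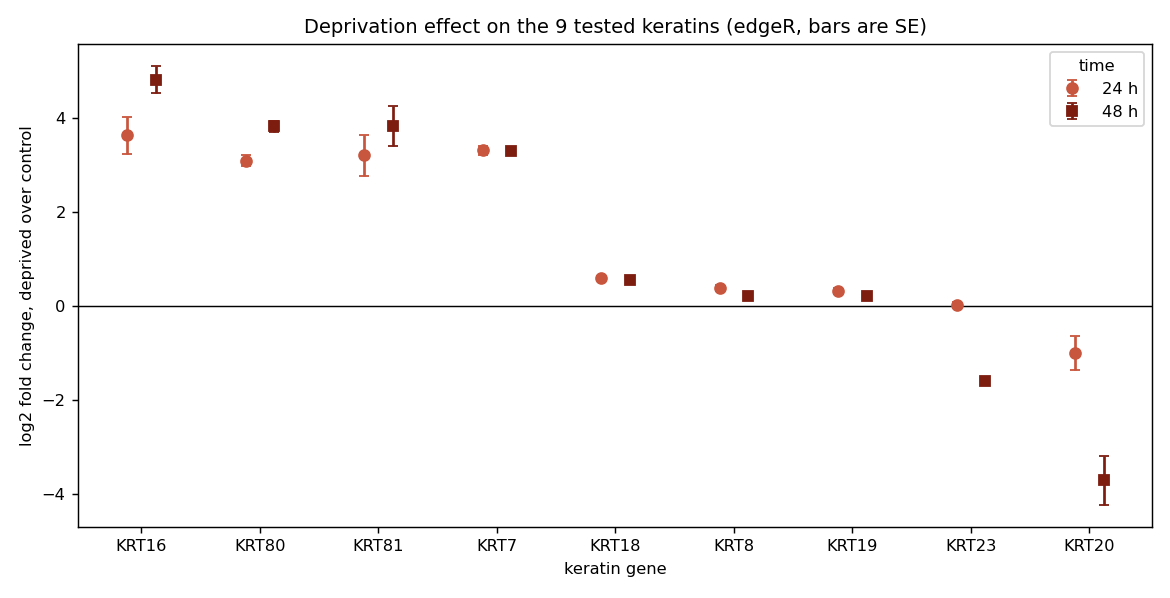
Log2 fold change (vertical axis) of deprived over control cells for each of the 9 tested keratins (horizontal axis) at 24 h (circles) and 48 h (squares), with bars for the standard error. KRT16, KRT80, KRT81 and KRT7 lie above 3, KRT18, KRT8 and KRT19 lie between 0 and 1, and KRT23 and KRT20 lie below -1 at 48 h.

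KRT7 (chromosome 12, 52232520 to 52252186, plus strand, ENSG00000135480), a type II chain of ducts and glands, went from low to moderately high levels. Control samples at 24 h held 6.48, 7.03 and 8.82 CPM and deprived samples 73.7, 78.5 and 70 CPM. At 48 h control samples held 7.2, 8 and 8.12 CPM and deprived samples 75, 81.8 and 73.9 CPM. All 6 deprived samples were far above all 6 controls, and neither the controls nor the deprived samples of the 2 times were apart from each other. KRT7 rose 9.97-fold at 24 h (log2 fold change 3.32 ± 0.09 SE, edgeR adjusted p 1.05e-15) and 9.89-fold at 48 h (3.31 ± 0.09, adjusted p 1.59e-16). The 2 effects differed by -0.01 on the log2 scale, with a 95% interval of -0.29 to 0.27 (adjusted p 0.96). Per length KRT7 moved from above 45.5% of tested genes in control cells at 24 h to above 90.5% in deprived cells.

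KRT80 (chromosome 12, 52168996 to 52192000, minus strand, ENSG00000167767), a type II epithelial chain, rose at 24 h and went on rising. Control samples held 5.16, 5.65 and 5.95 CPM at 24 h and 4.86, 7.04 and 6.61 CPM at 48 h. Deprived samples held 48.8, 45.7 and 49.5 CPM at 24 h and 77.5, 89.6 and 95.3 CPM at 48 h. No sample of one medium reached those of the other, and the deprived samples of the 2 times did not overlap. The rise was 8.6-fold at 24 h (log2 fold change 3.10 ± 0.11 SE, edgeR adjusted p 4.82e-14) and 14.2-fold at 48 h (3.83 ± 0.11, adjusted p 2.29e-16). The effect at 48 h exceeded that at 24 h by 0.72 ± 0.16 on the log2 scale (adjusted p 0.00197). Per length, deprived cells placed KRT80 above 67.4% of tested genes at 24 h and above 80.5% at 48 h, against 27.8% in control cells at 24 h.

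KRT16 (chromosome 17, 41609778 to 41615899, minus strand, ENSG00000186832), the type I keratin of wounded and stressed epidermis, had the highest fold change of the 9. Control samples held 5, 4 and 9 counts at 24 h (0.236, 0.205 and 0.461 CPM) and 4, 29 and 11 counts at 48 h (0.17, 1.33 and 0.505 CPM). Deprived samples held 82, 84 and 89 counts at 24 h (4, 3.63 and 3.81 CPM) and 378, 436 and 436 counts at 48 h (16.6, 20.2 and 19.9 CPM). The groups of the 2 media did not overlap at either time, and the control samples at 48 h were unequal, with replicate 2 the highest. KRT16 rose 12.5-fold at 24 h (log2 fold change 3.64 ± 0.40 SE, edgeR adjusted p 2.57e-07) and 28.5-fold at 48 h (4.83 ± 0.29, adjusted p 2.22e-11). Without control replicate 2 at 48 h the latter was 56.1-fold. The difference of the effects, 1.19 ± 0.64 on the log2 scale, did not pass the test (adjusted p 0.165), but without that replicate it was 2.17 ± 0.53 (adjusted p 0.00456). Over all fits run, the log2 fold change at 48 h went from 4.36 to 5.81. The difference of the effects went from 0.72 to 2.17, with adjusted p (edgeR or DESeq2) up to 0.523.

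KRT81 (chromosome 12, 52285913 to 52291534, minus strand, ENSG00000205426), a hair keratin, rose from a handful of counts to at least 30 in a sample. Control samples held 5, 3 and 2 counts at 24 h and 2, 4 and 5 counts at 48 h, and deprived samples held 32, 44 and 30 counts at 24 h and 39, 59 and 62 counts at 48 h. Every deprived sample was above every control sample, while the deprived samples of the 2 times overlapped. In CPM the means were 0.164 ± 0.0676 and 1.58 ± 0.309 at 24 h and 0.166 ± 0.0736 and 2.43 ± 0.616 at 48 h (SD, n = 3). The rise was 9.25-fold at 24 h (log2 fold change 3.21 ± 0.44 SE, edgeR adjusted p 4.55e-06) and 14.3-fold at 48 h (3.84 ± 0.42, adjusted p 1.14e-07). Summed with its relatives KRT83, KRT86 and KRT87P, it rose 5.76-fold and 8.09-fold. Of these, KRT86 held 37.6% of the 50-base words of KRT81, KRT87P 8.87% and KRT83 6.11%. KRT86 itself, named here for the shared run shown above, reached at most 17 counts in a sample and rose 2.58-fold at 24 h (adjusted p 0.0357) and 3.21-fold at 48 h (adjusted p 0.00913).

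KRT17 (chromosome 17, 41619441 to 41624842, minus strand, ENSG00000128422), which is often made together with KRT16, stayed too low to be tested. Its 3 samples summed to 7 counts in control and 18 in deprived cells at 24 h, and to 11 in each at 48 h. The highest sample, deprived replicate 2 at 24 h, held 12 counts and the lowest, control replicate 2 at 24 h, held 0, so the groups overlapped at both times. A difference between media was not detectable at this depth.

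**Figure D2:**
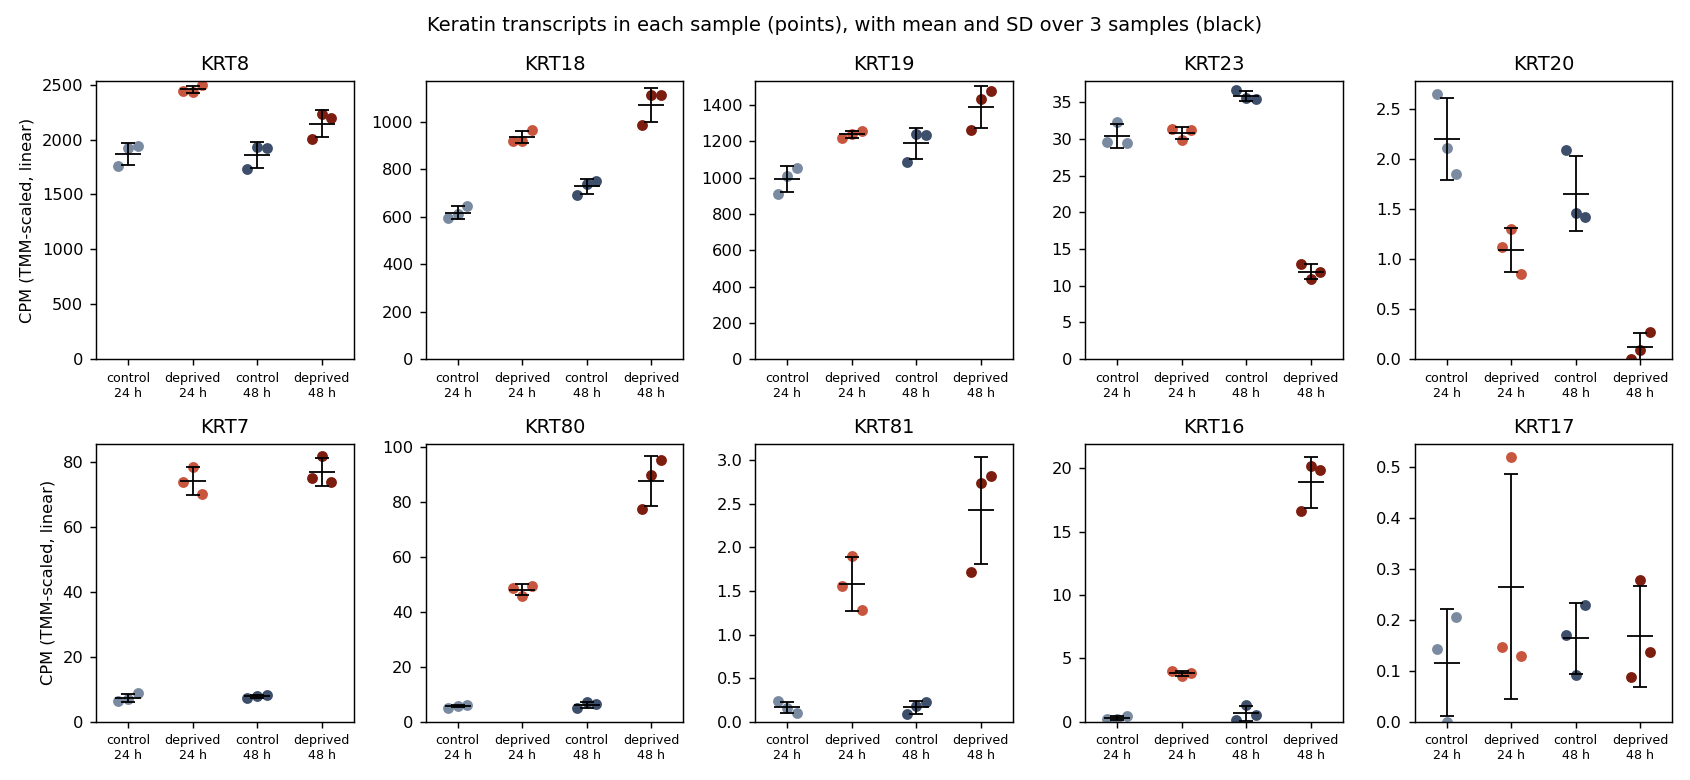
Level of each of the 10 keratins in each sample (points; TMM-scaled CPM on a linear vertical axis from 0) by group (horizontal axis), with the mean and SD of 3 samples in black. KRT7, KRT80, KRT81 and KRT16 are near the base line in control cells and high in deprived cells, whereas KRT23 is low only in deprived cells at 48 h.

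KRT8 (chromosome 12, 52897187 to 52949954, minus strand, ENSG00000170421), the type II chain of the simple-epithelial pair, rose modestly from an already high level. Control samples held 1756, 1920 and 1941 CPM at 24 h and 1728, 1931 and 1921 CPM at 48 h. Deprived samples held 2447, 2437 and 2496 CPM at 24 h and 2004, 2232 and 2199 CPM at 48 h. Deprived samples were above control samples at both times, by a narrower margin at 48 h, when replicate 1 was the lowest in both media. The log2 fold change was 0.39 ± 0.06 (SE) at 24 h (edgeR adjusted p 6.94e-06) and 0.21 ± 0.06 at 48 h (adjusted p 0.00297). The change in effect, -0.19 on the log2 scale with a 95% interval of -0.35 to -0.02, did not pass after adjustment (adjusted p 0.0703). It passed without control replicate 1 at 48 h (adjusted p 0.0202) or with genes limited to a mean of at least 5 CPM (adjusted p 0.0344). It was weaker without control replicate 1 at 24 h (-0.14, edgeR adjusted p 0.191) and with RLE scaling (-0.17, adjusted p 0.105).

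KRT18 (chromosome 12, 52948871 to 52952901, plus strand, ENSG00000111057), the type I partner of KRT8, rose more than its partner in value. This difference between genes was compared only through the ratio given below, which could not pass 0.05. Its control samples held 594, 609 and 646 CPM at 24 h and 693, 739 and 749 CPM at 48 h. Its deprived samples held 920, 920 and 963 CPM at 24 h and 986, 1113 and 1112 CPM at 48 h. The groups were apart in both comparisons of media and also in both comparisons of times. KRT18 rose by 0.60 ± 0.05 (SE) on the log2 scale at 24 h (edgeR adjusted p 2.44e-08) and by 0.56 ± 0.05 at 48 h (adjusted p 2.71e-08), and the 95% interval of the difference of these effects was -0.20 to 0.12. KRT8 and KRT18 overlap on opposite strands, and whether the libraries kept the strand is not given in the sources used, so reads from the overlap cannot be told apart.

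KRT19 (chromosome 17, 41523617 to 41528308, minus strand, ENSG00000171345), the smallest type I keratin and a chain of simple and ductal epithelia, also rose slightly. Control samples held 912, 1010 and 1056 CPM at 24 h and 1088, 1243 and 1237 CPM at 48 h, and deprived samples held 1219, 1240 and 1258 CPM at 24 h and 1261, 1432 and 1477 CPM at 48 h. At 48 h the lowest deprived sample was only just above the highest control sample. The log2 fold change was 0.32 ± 0.07 (SE) at 24 h (edgeR adjusted p 0.000402) and 0.22 ± 0.07 at 48 h (adjusted p 0.00535). The difference of these effects was -0.10, with a 95% interval of -0.29 to 0.10.

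KRT20 (chromosome 17, 40875941 to 40885227, minus strand, ENSG00000171431), the differentiation keratin of the gut surface, fell to a few counts by 48 h. Control samples held 56, 41 and 36 counts at 24 h (2.65, 2.11 and 1.85 CPM) and 49, 32 and 31 counts at 48 h (2.09, 1.46 and 1.42 CPM). Deprived samples held 23, 30 and 20 counts at 24 h (1.12, 1.3 and 0.856 CPM) and 0, 2 and 6 counts at 48 h (0, 0.0928 and 0.273 CPM). Deprived samples were below control samples at both times, and those at 48 h were below those at 24 h. KRT20 fell by 1.01 ± 0.36 (SE) on the log2 scale at 24 h (edgeR adjusted p 0.0242), a call that was lost without control replicate 1 (adjusted p 0.1), deprived replicate 1 (adjusted p 0.0533) or deprived replicate 3 (adjusted p 0.0918). At 48 h it fell by 3.72 ± 0.52, or 13.2-fold (adjusted p 3.17e-06). Without deprived replicate 3, 2 counts remained against 112 in control cells, a ratio of control to deprived of 37.2 with an exact 95% counting interval of 10.1 to 311. The effect at 48 h minus that at 24 h was -2.71 ± 0.66 on the log2 scale (adjusted p 0.0035), or -4.02 without that replicate. Over all fits that tested KRT20, the effect at 48 h went from -5.03 to -3.13 and this difference from -4.02 to -2.12.

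KRT23 (chromosome 17, 40922696 to 40937634, minus strand, ENSG00000108244), the neighbouring type I gene, fell between the 2 times. Its control samples held 29.6, 32.3 and 29.4 CPM at 24 h and 36.6, 35.6 and 35.4 CPM at 48 h. Deprived samples held 31.3, 29.9 and 31.2 CPM at 24 h and 12.9, 10.9 and 11.9 CPM at 48 h. The media overlapped at 24 h and were far apart at 48 h. The log2 fold change was 0.02 ± 0.07 (SE) at 24 h (edgeR adjusted p 0.87, 95% interval -0.13 to 0.16), and at 48 h KRT23 fell by 1.59 ± 0.07, or 3-fold (adjusted p 5.41e-13). The 2 effects differed by -1.60 ± 0.10 (adjusted p 3.64e-10).

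Of the 9 tested keratins, KRT23, KRT20 and KRT80 were thus the 3 whose response to deprivation passed the test of a difference between 24 h and 48 h, where 35.6% of tested genes did (16.4% towards higher and 19.2% towards lower). KRT8 lay near the threshold, as given above. In control cells alone, KRT18, KRT19 and KRT23 were higher at 48 h than at 24 h, 3 of 9 against 23% of tested genes called (12.7% higher and 10.4% lower), with log2 differences of 0.24, 0.26 and 0.24 (edgeR adjusted p 0.00372, 0.00722 and 0.0163). KRT19 and KRT23 lost that call without control replicate 1 at 24 h (adjusted p 0.0526 and 0.0737). Without control replicate 3 at 24 h the KRT23 value was also past the threshold no longer (adjusted p 0.0652). Within deprived cells 7 of 9 differed between the times, against 42.5% of tested genes (20.7% higher and 21.8% lower). KRT16 (2.31 ± 0.22 SE, log2), KRT80 (0.87 ± 0.08), KRT18 (0.20) and KRT19 (0.17) were higher at 48 h. KRT8 (-0.20), KRT23 (-1.36) and KRT20 (-3.11 ± 0.54) were lower. The KRT20 value, which rests on 8 counts at 48 h, was -4.43 without deprived replicate 3 at 48 h, with 2 counts left. It went from -4.43 to -2.53 over all fits that tested KRT20. The KRT19 difference lay at the threshold (adjusted p 0.0497) and was lost in 7 of the 12 fits that left out a sample, with adjusted p up to 0.209.

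**Figure D3:**
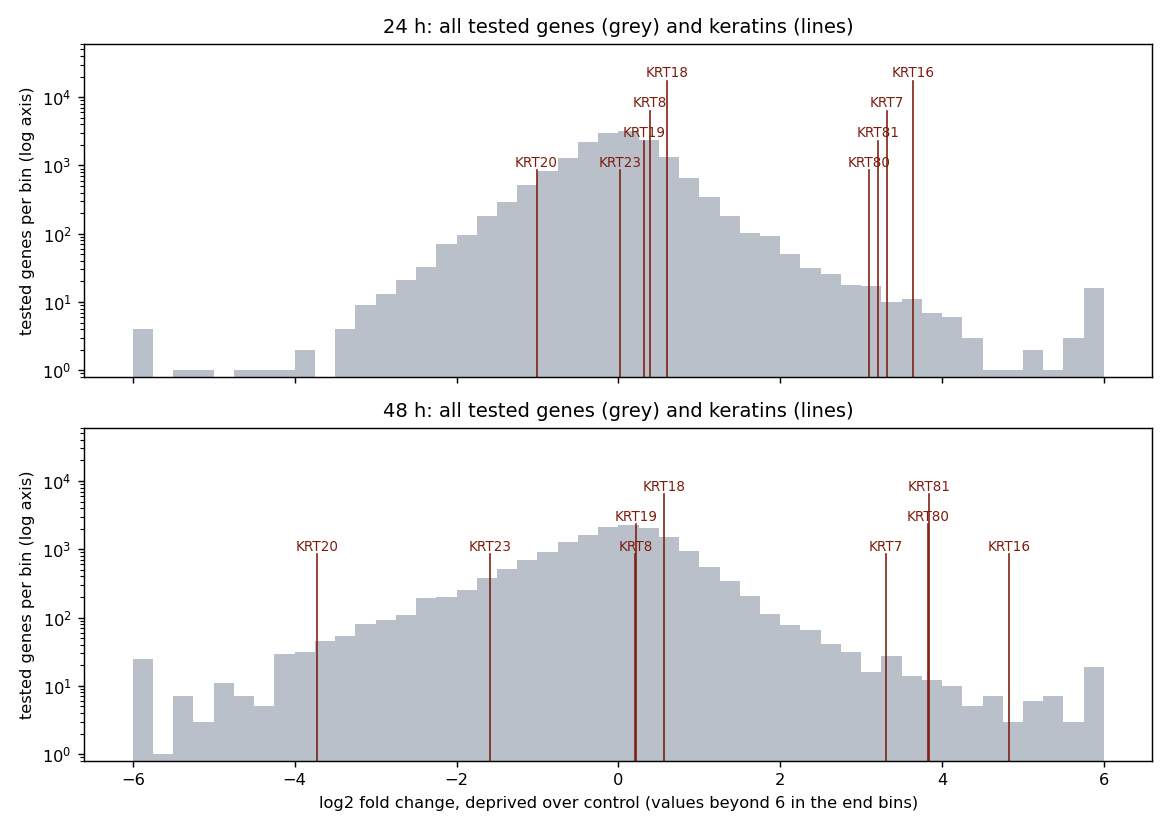
Number of tested genes (vertical log axis) by log2 fold change of deprived over control cells (horizontal axis) at 24 h (top) and 48 h (bottom), in grey, with a line at the value of each tested keratin. KRT7, KRT80, KRT81 and KRT16 lie in the sparse right tail at both times, and KRT20 lies in the left tail at 48 h.

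Because KRT8 and KRT18 are the first pair of simple epithelia, their per-length levels were divided in each sample. The type I chain KRT19 was above KRT18 in every group mean. KRT19 held 714 against 434 CPM per kilobase in control cells at 24 h, and 1000 against 754 in deprived cells at 48 h. The ratio leaves KRT19 out, so it does not show whether KRT8 exceeded its possible type I partners. The KRT8 to KRT18 ratio was 2.49, 2.65 and 2.53 in control samples and 2.24, 2.23 and 2.18 in deprived samples at 24 h. At 48 h it was 2.1, 2.2 and 2.16 in control and 1.71, 1.69 and 1.66 in deprived samples. Deprived samples were lower at each time without overlap, and controls at 48 h were lower than controls at 24 h. Each of these comparisons gave p = 0.1 by a two-sided exact permutation test, the smallest that 3 against 3 samples allow (0.114 after adjustment over 8 comparisons), so none could pass 0.05.

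Type I chains held 51% ± 0.455 (SD, n = 3) of the summed per-length level of the 10 keratins in control cells and 50.8% ± 0.246 in deprived cells at 24 h, groups that overlapped (exact permutation p = 0.5). At 48 h the shares were 55.5% ± 0.0877 in control and 56.9% ± 0.632 in deprived cells, without overlap (exact permutation p = 0.1). KRT8, KRT18 and KRT19 together held 99.1% and 97.5% of the pool in control and deprived cells at 24 h and 99% and 97.2% at 48 h. KRT7, KRT80, KRT16 and KRT81 held 0.275% ± 0.0263 in control and 1.98% ± 0.0971 in deprived cells at 24 h. At 48 h they held 0.274% ± 0.022 and 2.65% ± 0.0647. The 4 genes with the highest fold changes thus remained a small part of the keratin transcripts. All 10 genes together took 0.364% of all counts in control and 0.47% in deprived cells at 24 h, and 0.383% and 0.472% at 48 h.

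**Figure D4:**
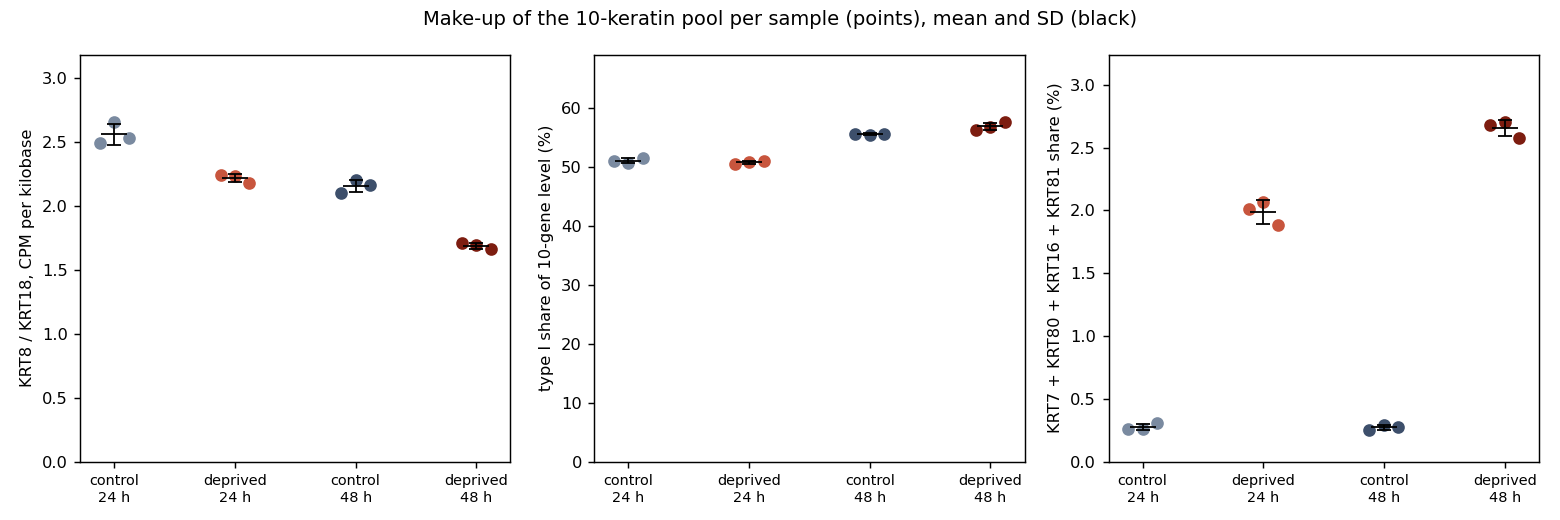
KRT8 to KRT18 ratio of CPM per kilobase (left), type I share of the 10-keratin level in percent (middle) and share of KRT7, KRT80, KRT16 and KRT81 in percent (right) for each sample (points) by group (horizontal axis), with mean and SD of 3 samples in black. The ratio falls from 2.56 in control cells at 24 h to 1.69 in deprived cells at 48 h, and the 4-gene share goes from 0.275% to 2.65%.

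Human keratin genes lie in 2 clusters, and position was set beside the response using GENCODE release 29 (GRCh38). In the chromosome 12 cluster of type II genes, which also holds KRT18, KRT80, KRT7, KRT86 and KRT81 are the first 4 of 27 protein-coding keratin genes in order, and KRT80 to KRT81 spans 123 kb. All 4 rose at both times, but KRT81 passed the filter on low counts only through the deprived groups, in which it is high. KRT86, with at most 17 counts in a sample, was not checked for this. KRT86 also holds 37.6% of the 50-base words of KRT81, so the rises of this pair may share reads. KRT8 and KRT18, which lie 606 kb beyond KRT81, are the last 2 and rose by less than 2-fold, and the keratin genes between had too few counts to test. Of the tested genes that are no keratins within 200 kb of KRT80 to KRT81, ATG101, an autophagy gene, had log2 fold changes of 0.82 and 1.05 at 24 h and 48 h (edgeR adjusted p 2.25e-07 and 2.26e-09). ACVR1B, a receptor of activins, had -0.16 and -0.17 (adjusted p 0.0357 and 0.0256), and NR4A1, a nuclear receptor, had -0.00 and -0.37 (adjusted p 0.979 and 0.00169). KRT7 overlaps KRT86, KRT87P and the antisense gene KRT7-AS, KRT80 overlaps LINC00592, and KRT81 lies within the span of KRT86 on the other strand, so without strand information reads in these overlaps cannot be told apart.

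In the chromosome 17 cluster, genes that rose and genes that fell were interspersed. KRT20 and KRT23 are neighbours with 37.5 kb between them and both fell at 48 h. KRT16 and KRT17 are 3.54 kb apart, yet KRT16 reached 436 counts in a sample and KRT17 12. KRT19 and KRT15 are 1.09 kb apart. KRT15, a keratin of basal epithelial cells, went from 15.7 ± 1.92 to 41.4 ± 2.55 CPM at 24 h and from 22.8 ± 1.38 to 45.4 ± 4.27 CPM at 48 h (SD, n = 3). It rose by 1.40 ± 0.09 and 0.99 ± 0.09 on the log2 scale (SE, edgeR adjusted p 2.84e-10 and 5.97e-09), more than KRT19 in value, a difference between genes that was not tested.

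**Figure D5:**
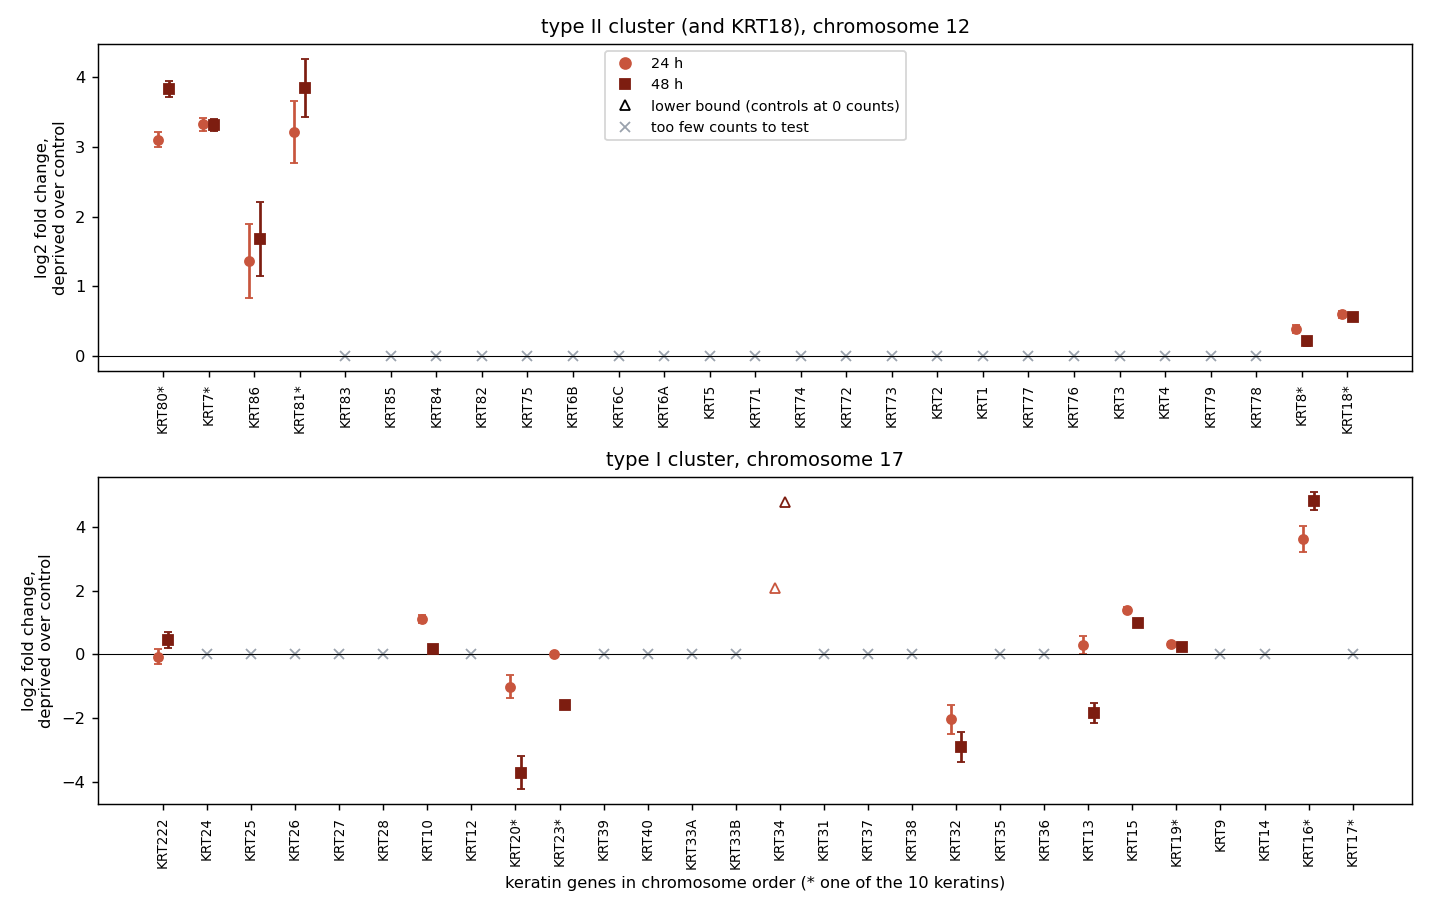
Log2 fold change of deprived over control cells with SE bars (vertical axis) for keratin genes in chromosome order (horizontal axis). Chromosome 12 is at the top and 17 at the bottom, with circles for 24 h and squares for 48 h. Crosses are genes with too few counts. Triangles, marked as lower bounds in the figure, are KRT34 values against a floor of 3 counts over the control group. They leave out counting error of the deprived samples. KRT80, KRT7, KRT86 and KRT81 stand together at the left of the chromosome 12 cluster, all above 1.

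Beyond the 10 genes, the table held 45 other keratin genes, of which 16 had 0 counts in all samples and 38 never passed 10 counts in a sample. The usual type II partners of KRT16 and KRT17 were among these, with at most 9 counts of KRT6A, 3 of KRT6B and 0 of KRT6C, as were KRT5 and KRT14 of basal cells, with at most 5 and 6 counts. Of 7 tested, 4 rose and 1 fell at 24 h, and 3 rose and 2 fell at 48 h. Beside 55.6% and 68.3% of all tested genes called, the count at 48 h is near the background. KRT34, described below, passed the filter on low counts only through the deprived groups, so its presence among the 7 favours a rise. KRT32 passed only through the control groups, so its presence favours a fall. KRT86, with at most 17 counts in a sample, was not checked for this. KRT10, a type I keratin of differentiating epidermis, rose by 1.12 ± 0.13 on the log2 scale at 24 h (SE, edgeR adjusted p 7.5e-07) and stood at 0.18 ± 0.13 at 48 h (adjusted p 0.211). KRT13, of mucosal stratified epithelium, stood at 0.29 ± 0.29 at 24 h (adjusted p 0.407) and fell by 1.84 ± 0.32 at 48 h (adjusted p 4.97e-05). The hair keratin KRT32 fell, with log2 fold changes of -2.04 ± 0.46 and -2.92 ± 0.48 (adjusted p 0.000865 and 2.71e-05), with 67 counts summed over control and 18 over deprived samples at 24 h and 87 and 11 at 48 h. KRT222 did not pass the test at either time (-0.07, adjusted p 0.828; 0.45, adjusted p 0.115).

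KRT34, a hair keratin of type I, had 0 counts in all 6 control samples. Deprived samples held 5, 1 and 9 counts at 24 h and 25, 27 and 31 counts at 48 h. Each deprived sample was above each control sample, and those at 48 h were above those at 24 h. Against a floor of 3 counts over the control group, KRT34 was 4.26-fold higher at 24 h and 27.6-fold higher at 48 h. These values allow for counting error in the controls only. The deprived sums of 15 and 83 counts were taken as observed, so the values are not strict lower bounds.

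Transcripts of proteins that tie keratin filaments to desmosomes and other structures included more falls than rises at 48 h. Of 19 tested among 21 desmosome and linker genes, 6 rose and 8 fell at 24 h (median log2 fold change -0.03, all tested genes -0.01), and 5 rose and 13 fell at 48 h (median -0.44, all tested genes -0.02). The calls came to 73.7% and 94.7% of the list, beside 55.6% and 68.3% of all tested genes, of which 26.9% and 34.9% were lower. PLEC, the linker plectin, went from 911 ± 57.6 to 1861 ± 130 CPM at 24 h and from 1081 ± 67.5 to 4124 ± 240 CPM at 48 h (SD, n = 3), log2 fold changes of 1.03 ± 0.06 and 1.93 ± 0.07 (SE). FAM83H, which organises keratin filaments, rose by 0.89 ± 0.05 and 1.23 ± 0.05. The desmosomal plakin EVPL fell by 0.92 ± 0.05 and 1.43 ± 0.06, and the desmosome-associated PERP fell by 0.95 ± 0.05 and 1.12 ± 0.05. All 4 passed at both times by edgeR, with adjusted p from 4.84e-15 to 1.17e-10.

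Intermediate filament genes other than keratins gave 5 rises and 4 falls among 12 tested of 18 at 24 h (median -0.10) and 2 rises and 6 falls at 48 h (median -0.43). The 8 calls at 48 h are 66.7% of the list, near the 68.3% of all tested genes, and the 9 at 24 h are 75% beside 55.6%. LMNB1, a lamin of the nuclear envelope, rose by 0.46 ± 0.05 on the log2 scale at 24 h and fell by 1.65 ± 0.06 at 48 h (SE). NES, nestin, fell by 1.25 ± 0.07 and 1.04 ± 0.07. SYNM, synemin, fell by 0.87 ± 0.11 and 1.91 ± 0.12, and BFSP1, filensin, fell by 0.44 ± 0.08 and 1.30 ± 0.08.

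Genes of stratified and cornified epithelium were mostly silent, with 10 tested of 27 in the table. Of these 7 rose and 1 fell at 24 h (median 0.83), and 6 rose and 2 fell at 48 h (median 1.02), so that 80% were called at each time beside 55.6% and 68.3% of all tested genes. The medians of all tested genes were -0.01 and -0.02. SPRR2D, described next, passed the filter on low counts only through the deprived groups, in which it is high. Its presence among the tested genes therefore favours a rise, and the other genes of the list were not checked for this. SPRR2D, a cornified envelope precursor, held 459 counts over the deprived against 1 over the control samples at 24 h, a ratio of 391 with a 95% counting interval of 69.9 to 15484. At 48 h it rose from 0.209 ± 0.115 to 4.81 ± 0.122 CPM (SD, n = 3; log2 fold change 4.49 ± 0.30 SE, edgeR adjusted p 8.72e-11). CSTA, a cysteine protease inhibitor of the epidermis, rose by 2.42 ± 0.16 and 2.19 ± 0.15 on the log2 scale, and SFN, the epithelial 14-3-3 protein, by 0.54 ± 0.08 and 1.24 ± 0.08. KRT15 is the last gene of this list that the naming rule took. TP63, the regulator of squamous cells, stayed at 0.205 CPM or less in all samples.

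Among epithelial transcription factors and splicing regulators, 7 of 16 tested rose and 2 fell at 24 h (median 0.18), and 9 rose and 3 fell at 48 h (median 0.28). The calls came to 56.2% and 75% of the list, near the 55.6% and 68.3% of all tested genes. KLF5, a regulator of proliferating gut epithelium, rose by 1.09 ± 0.06 and 1.42 ± 0.05 on the log2 scale (SE). The splicing regulator ESRP1 rose by 1.02 ± 0.05 and 0.88 ± 0.04. KLF4, a factor of differentiated gut epithelium, rose by 1.48 ± 0.07 at 24 h and by 0.36 ± 0.07 at 48 h, when the control level was itself higher (30.8 ± 2.43 CPM at 24 h and 77.4 ± 6.67 CPM at 48 h, SD, n = 3). GRHL3, a factor of epidermal differentiation, fell by 1.18 ± 0.25 and 3.36 ± 0.27. Whether any of these lists stands apart from other genes was not tested.

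The genes whose log2 levels most resembled each keratin were taken by Pearson's r over the 12 samples among 11003 candidates, as a description: the samples fall in 4 groups, so a high r says mainly that the group levels have the same order and spacing. KRT7 was closest to PFDN2 (r = 0.998), a prefoldin subunit, and to PCK2 (0.997), the mitochondrial phosphoenolpyruvate carboxykinase. KRT80 was closest to UTP11 (0.999), a ribosome biogenesis factor, and to EIF4EBP1 (0.998), an inhibitor of translation initiation. KRT16 was closest to CALB2 (0.995) and LTBP2 (0.993), and KRT81 to DERL1 (0.994) and BNIP1 (0.992). KRT18 was closest to PHC2 and the metallothionein MT2A (both 0.995), KRT8 to RANGAP1 (0.977) and TKFC (0.974), and KRT19 to GMDS (0.977) and NIBAN2 (0.969). Of the keratins that fell, KRT23 was closest to the helicase PIF1 and the cohesin subunit RAD21 (both 0.996), and KRT20 to ATF7IP (0.982) and SERPINI1 (0.973). The size of change was close in some pairs, such as PHC2, with log2 fold changes of 0.60 and 0.50, beside KRT18, and NIBAN2, with 0.26 and 0.23, beside KRT19. It was not in others: PCK2 had 2.40 and 2.31, below the values of KRT7, and PIF1 had -5.91 at 48 h, beyond that of KRT23.

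Promoter windows from RefSeq (GRCh38.p14, 250 bases before to 50 bases after the start) were at hand for KRT8 and KRT20. The KRT8 window lies inside the gene span given above (the 200 bases before its start are chromosome 12, 52926470 to 52926669), so it belongs to a start within that span and not to the outermost one. Both strands of these 300 bases were searched for the AP-1 site TGANTCA, the antioxidant response element core TGACNNNGC, the ATF4 composite core TGATGNAA, the TATA box TATAAA and the GC box GGGCGG, and no match was found in either. Among all 35116 promoters of the table these occurred in 7.71%, 13.3%, 3.62%, 11.5% and 45%. The absence of a match says only that these letters are not in these windows.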

How the data were processed

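RNA-seq of 12 HCT116 samples gave 1 deposited table of estimated counts per gene, which the authors left unnormalized, with a gene length per row. Per the submitters' processing notes, fastp, HISAT, RSEM and GRCh38 were used; versions, roles, annotation release and strandedness are not given in the sources used here. Groups and replicate numbers came from the sample titles. The 10 keratins, the gene lists and the naming rule were chosen with earlier results of these data known.

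Estimated counts were rounded (14.2% were not whole within 0.001). The 316 of 60987 rows without a gene name, 0.748% to 1.65% of counts, were left out. Genes passing filterByExpr (minimum count 10, minimum total 15) were scaled by TMM and fitted together as 4 group means over all 12 samples with edgeR 4.0.16 (R 4.3.3, glmQLFit and glmQLFTest). Calls use a Benjamini-Hochberg adjusted p under 0.05 over 16994 genes. The SE is the log2 fold change divided by the root of F, and 95% intervals use the fit's t distribution. Scaling by gene length used the deposited length. Ratios and shares were compared by exact permutation tests.

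Named genes were the 10 keratins, other keratins with a group mean of at least 1 CPM, up to 4 genes with the smallest adjusted p per list, and the 2 most correlated genes per keratin by log2(CPM + 0.5), taken from genes that averaged 5 CPM or more. KRT86, the neighbouring genes of KRT80 to KRT81 and the very low keratins were named outside that rule, after their values were seen. Replicates differed by more than counting noise (chi-square per degree of freedom 3 to 8.12), so none was treated as deposited again. The fit was tested on simulated counts. Alternatives were RLE, upper-quartile and library-total scaling, DESeq2 1.42.0, no filter and a filter at a mean of 5 CPM. Others were a replicate block, only the compared groups, pseudogene copies and relatives summed, and leaving out each sample. Protein sequences were not analysed here. Depth was 19146108 to 24179533 counts per sample. Intervals on counts cover counting error only, and the floor used for KRT34 covers that of the control group only.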

Additional observations from a re-analysis of the deposited data

Results flagged for a closer look

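The effect of cystine deprivation differed between 24 h and 48 h for 3 of the 9 tested keratins, by the interaction term of the edgeR fit. That count is near the background, as 35.6% of all tested genes were called for this term. For KRT20, the effect at 48 h minus that at 24 h was -2.71 ± 0.66 on the log2 scale (SE, adjusted p 0.0035). Deprived samples were below control samples at both times. The KRT20 value rests on 0, 2 and 6 counts in the deprived samples at 48 h and was -4.02 without replicate 3 of that group. It went from -4.02 to -2.12 over all fits that tested KRT20. For KRT23 the difference was -1.60 ± 0.10 (adjusted p 3.64e-10): deprived and control samples overlapped at 24 h, and deprived samples were lower in 3 of 3 at 48 h. For KRT80 it was 0.72 ± 0.16 (adjusted p 0.00197), with deprived samples higher in 3 of 3 at both times. Control cells at 48 h were themselves higher than at 24 h for KRT23 (0.24) and not past the test for KRT20 (-0.41, adjusted p 0.442) or KRT80 (0.14, adjusted p 0.517).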

How the results depend on the processing

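Counts of called keratins stayed within 1.5 times of the reported ones under each alternative run except 1: keratins called between control cells at 48 h and 24 h were 3, and 1 without control replicate 1 at 24 h. Leaving out each sample in turn gave 7 to 8 at 24 h, 9 to 9 at 48 h, 3 to 4 for the change of effect, 1 to 4 for control cells over time and 6 to 7 for deprived cells over time. The KRT8 to KRT18 ratio differed by -0.375 to -0.293 at 24 h and by -0.491 to -0.442 at 48 h. The type I share at 24 h, -0.229 percentage points, ranged from -0.451 to 0.00384, reversed without control replicate 3 at 24 h; the cause was not tested. At 48 h it ranged from 0.968 to 1.59. Scaling moved the median of all genes by at most 0.08 and turned the direction of no called keratin in the comparisons of media; KRT23 at 24 h, not called, went from 0.02 to -0.06 with library totals or upper-quartile factors. However, genes called higher and lower at 24 h went from 4886 and 4566 to 4086 and 5320 with library totals and to 4160 and 5300 with upper-quartile factors. KRT23 lost its control-cell call with library totals (adjusted p 0.063). The KRT8 change of effect passed with a filter at 5 CPM (adjusted p 0.0344). KRT16 between control times passed with no filter (adjusted p 0.0396), with copies summed (0.0381) and without control replicate 1 at 48 h (0.0136). Same-numbered samples did not deviate together (correlations -0.04 to 0.13), so the numbers were not taken as pairs; with a replicate block 8, 9, 4, 3 and 7 keratins were called in the same order, KRT8 being added to the change of effect (-0.19, adjusted p 0.0144). Depth limits KRT17, KRT81 and KRT20, which rest on the fewest counts.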
